A study of Apis cerana with 76 samples.

Results

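The miRNAs of adult queens and of adult drones were compared in Apis cerana, the Asian honey bee, from the 2 pooled count columns QA (queens) and D (drones) of the stage sheet. The miRNA entries kept were those with 30 or more counts in queens, or with 500 or more CPM in drones (counts per 1000000 counts of the column). They were 50 of 146 entries. Both minimums were met by 33 entries, the queen minimum alone by 10 and the drone minimum alone by 7. The 50 entries held 99.5% of the queen counts and 99.4% of the drone counts. An entry kept through 1 column alone had to be under the minimum in the other, so its direction is partly set by the rule.

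All bees were wild type per the labels, and no treatment is named. Queens are the diploid reproductive females of a colony, drones are its haploid males, and workers are females that normally do not reproduce. Each of the 4 adult groups used here, queens (QA), drones (D) and the workers YA and OA, had 3 small RNA libraries from total RNA. The sequencing statistics name YA as nurse bees, young adults, and OA as foragers, old adults. For the adult groups no tissue, age in days, mating state or number of bees was given, and the protocol text speaks of dissected organs, so whether whole bees were used is not stated. The organ libraries of queen ovary and drone testis, 2 libraries each, were used for 1 further comparison.

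A miRNA is a short RNA that guides an Argonaute protein to messenger RNAs, mostly through its seed (bases 2 to 8), and lowers their translation or stability. Entries with the same seed can therefore share targets. In insects miRNAs are known from the timing of development, from muscle and neurons, from fat and energy balance and from the ovary. In bulk RNA, fewer cells of a type and less miRNA per cell cannot be told apart.

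The sequences below are those of the deposited stage sheet, 5′ to 3′, with the seed in capitals. The first set holds the entries furthest to the drone side. miR-277, miR-34 and miR-317 lie in 1 locus in Drosophila.
miR-34-5p: uGGCAGUGuuguuagcugguug
miR-277-3p: uAAAUGCAcuaucugguacgac
miR-317-3p: uGAACACAgcuggugguaucuc
miR-14-3p: uCAGUCUUuuucucucuccuau
miR-278-3p: uCGGUGGGacuuucguccguuu
miR-210-3p: uUGUGCGUgugacagcggcuau
miR-133-3p: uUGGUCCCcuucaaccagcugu
The second set holds the 5 entries furthest to the queen side.
miR-4057: gCAGAUCUuggugguaguagcaaa
miR-3759-3p: gGGACUCAcgucgacugggugucc
miR-3720-5p: aUACGGUGaugaguuuaaac
miR-6497-5p: cUCUGAGGagcggggcguguc
miR-6001-3p: uUCUCUUUgguuguuaccacuag
The third set holds the most abundant entries and the ovarian miRNA miR-989-3p.
miR-184-3p: uGGACGGAgaacugauaagggc
miR-1-3p: uGGAAUGUaaagaaguauggag
miR-8-3p: uAAUACUGucagguaaagauguc
let-7-5p: uGAGGUAGuagguuguauagu
miR-989-3p: cGUGAUGUgacguagugguucu
The last set shows pairs with 1 seed and different ratios.
miR-275-3p: uCAGGUACcugaaguagcgcgcg
miR-306-5p: uCAGGUACugagugacucugaga
miR-750-3p: cCAGAUCUaacucuuccagcu
miR-275-3p and miR-306-5p share the seed CAGGUAC, and miR-750-3p shares CAGAUCU with miR-4057.

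The queen column was shallow. It held 72873 miRNA counts, against 16714431 in drones, although the libraries were sequenced alike, with 7912082 to 17603181 reads each in queens and 6451440 to 17619202 in drones. If a column adds up its libraries, 0.213% of queen reads were miRNA counts (95% exact binomial interval 0.212 to 0.215) and 53.1% of drone reads. The queen value was the lowest share of the 18 stage columns, and that of drones was the 3rd highest. The drone column cannot be a mean over libraries, since it exceeds their mean reads. If the queen column is a mean, its share is 0.639%. The reads of queen libraries had 55.2% to 56.0% GC and those of drone libraries 49.7% to 50.2%. Body part being unstated, tissue markers were looked up. The ovary miRNA miR-989-3p had 86 counts in queens, at 1180.1 CPM against 313 CPM in drones. Both worker columns were higher for it, at 1569 CPM (YA) and 3305 CPM (OA). The muscle miRNA miR-1-3p was abundant in both sexes, while miR-133-3p, also of muscle, stood at 508 CPM in queens and 3808 CPM in drones. The gut entries miR-281-3p and miR-281-5p stood at 316 and 165 CPM in queens and 298 and 287 CPM in drones. The neural entry miR-124-5p had 0 queen counts and 10.5 CPM in drones, under the queen floor given below, and allows no statement. The highest of the neural list in queens were miR-9-5p, miR-7-5p and miR-2796-3p, at 1770.2 to 18978 CPM. miR-210-3p stood at 206 CPM in queens, and the other entries of that list had 0 to 26 queen counts. A floor of 3 counts stood at 41.2 CPM in queens and 0.179 CPM in drones. Queens had no count for 42 of 146 entries and drones had counts for all. The part of this difference in miRNA yield in the ratios given here was not tested.

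Each group was 1 pooled column, so there is no spread between replicates, no test between queens and drones was made, and no p-value is given. Each ratio is the CPM in queens over that in drones, on the log2 scale, with an exact 95% interval that covers counting error only. Biological variation between bees and libraries is not in that interval. An entry was counted as apart when the ratio was at least 2-fold.

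Of the 50 miRNAs, 14 were at least 2-fold higher in queens and 18 at least 2-fold higher in drones. Over all 146 entries the same limit was passed by 40.4%, with 19.9% in the queen direction and 20.5% in the drone direction. Of those 146, 41 had no ratio because queens were at 0 and drones under the queen floor, and of the 105 that had a ratio or bound 59, or 56.2%, were at least 2-fold apart, against 64.0% of the 50. The share among the 50 was thus near that of the entries that could be called. For 12 and 13 of the 50 the whole counting interval lay past 2-fold, against 11.6% and 9.59% of all entries. The remaining 18 were under 2-fold, and for 5 of the 50 the interval included equal levels. The median log2 ratio over the 50 was -0.46, against -0.01 over the 105 entries with a ratio or bound. Among the 33 that met both minimums, 6 were at least 2-fold higher in queens and 12 in drones. The split also depended on the scaling. With totals that leave out miR-184-3p and miR-1-3p, which moved the median of the 50 by 0.69, 20 were higher in queens and 9 in drones. TMM factors moved it by -0.10 and DESeq2 size factors by 0.15, with 13 and 20, and 16 and 16, in the queen and drone direction. Per sequenced read, 46 were at least 2-fold lower in queens and 3 higher, so the directions given here are relative to all miRNA counts of a column.

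**Figure D1:**
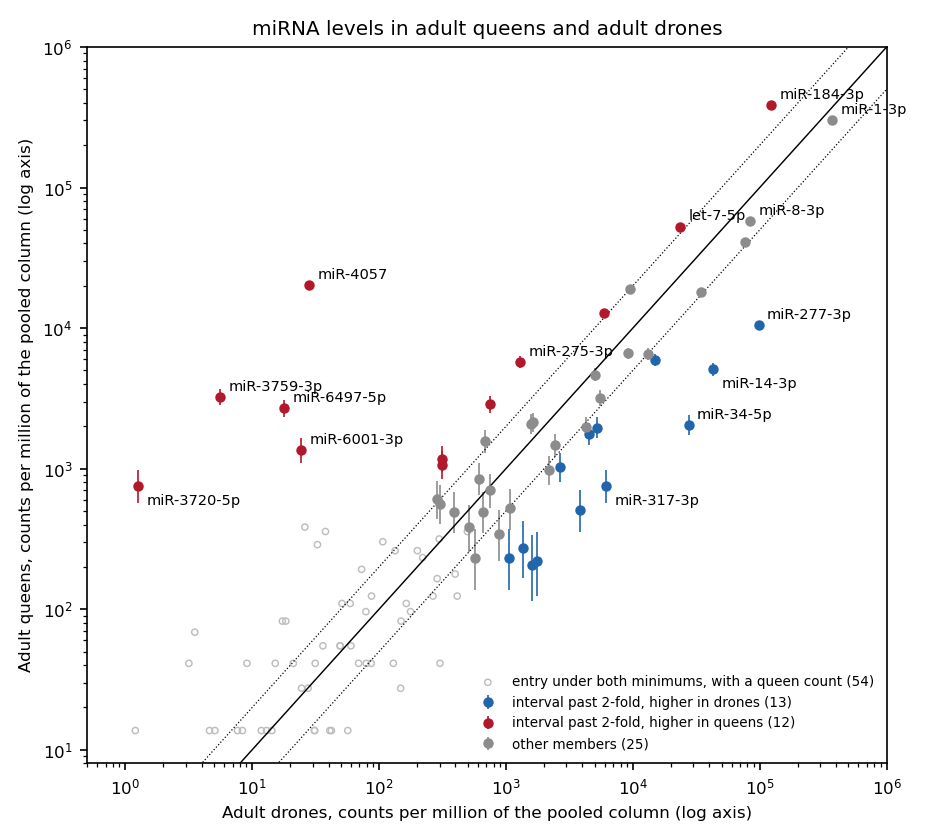
Level of each miRNA entry in adult drones (x axis) and adult queens (y axis), in CPM of the pooled column on log axes, with 95% counting intervals for queens. The solid line marks equal levels and the dotted lines 2-fold. The 5 entries at the upper left stand at 755 to 20254 CPM in queens and 1.26 to 28.2 CPM in drones, and miR-34-5p and miR-277-3p lie furthest below the line among the abundant entries.

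**Figure D2:**
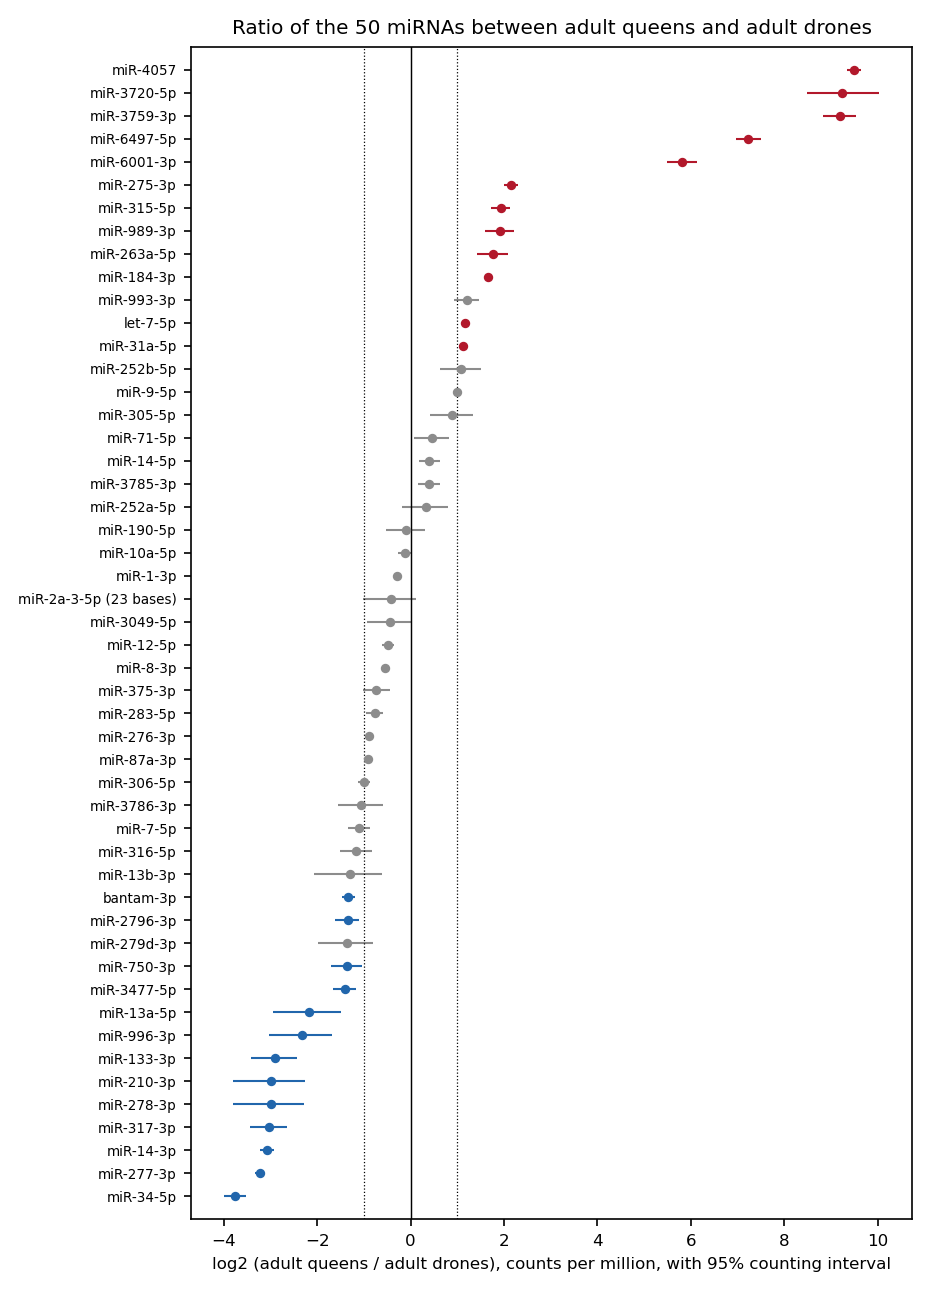
log2 ratio of adult queens over adult drones for each of the 50 miRNAs, in order of size, with 95% counting intervals as bars. Red and blue points are the 12 and 13 entries whose interval lies wholly past 2-fold (dotted lines), from miR-4057 at 9.49 to miR-34-5p at -3.75.

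The most abundant miRNAs were largely shared between the sexes, in another order. miR-184-3p, which acts in the female germline and early embryo of Drosophila, was first in queens, with 28099 counts or 38.6% of the column (95% interval 38.2 to 38.9), and second in drones, with 2054260 counts or 12.3%. The muscle miRNA miR-1-3p was first in drones with 6219199 counts or 37.2%, and second in queens with 21979 counts or 30.2%. The 2 thus changed places. miR-184-3p was 3.14-fold higher in queens (log2 ratio 1.65, interval 1.63 to 1.67), while miR-1-3p differed by 1.23-fold. miR-8-3p, which acts on growth in the fat body of flies, took 5.74% of queen and 8.37% of drone counts. miR-276-3p, needed for memory in flies, took 4.12% and 7.65%. let-7-5p, a timer of late development, was among the first 5 in queens alone (5.28% against 2.37%), and miR-277-3p in drones alone (9.81% against 1.05%). The first 5 entries made up 83.9% of queen counts and 75.3% of drone counts.

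Among the 4 miRNAs furthest to the drone side were miR-34, miR-277 and miR-317, a cluster known from ageing and metabolism in flies. The fourth was miR-14-3p. All 3 mature forms kept here were 8-fold or more apart. miR-34-5p had 149 counts in queens and 459798 in drones, that is 2045 CPM (interval 1729.5 to 2401) against 27509 CPM, or 13.5-fold higher in drones (log2 ratio -3.75, -3.99 to -3.52). miR-277-3p, which acts on the breakdown of branched-chain amino acids in flies, had 764 and 1639276 counts, 10484 against 98075 CPM (-3.23, -3.33 to -3.12). miR-317-3p had 55 and 103063 counts, 755 against 6166 CPM (-3.03, -3.44 to -2.65). The ratio of miR-34-5p was the largest, and its interval does not overlap that of miR-277-3p, while those of miR-277-3p and miR-317-3p overlap. The passenger form miR-34-3p, with 0 counts in queens and 18.9 CPM in drones, was under the queen floor and allows no statement.

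Of the metabolic miRNAs, miR-14-3p and miR-278-3p lay far to the drone side. miR-14-3p, which acts on fat storage and insulin-producing cells in flies, had 372 counts in queens and 714635 in drones, 5105 against 42756 CPM (log2 ratio -3.07, -3.22 to -2.92). Its partner arm miR-14-5p went the other way, at 2141 against 1620.2 CPM (0.40, 0.17 to 0.63). In queens the 2 arms stood at 372 and 156 counts, and in drones at 714635 and 27081. miR-278-3p, linked to energy balance in flies, had 16 and 29116 counts, 219.6 against 1742 CPM (-2.99, -3.80 to -2.29). miR-375-3p, known from insulin release in vertebrates, was under 2-fold at -0.73 (-1.01 to -0.45). Thus 2 of the 4 metabolic members were at least 2-fold higher in drones and 0 in queens, with a median of -1.86, where 36.0% of the 50 were higher in drones and their median was -0.46. Of the 2, miR-278-3p was kept through the drone minimum alone. Outside the 50, miR-33-3p had 3 counts in queens and was at -1.08 (-3.35 to 0.47).

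Of the 2 muscle miRNAs, miR-133-3p was 7.50-fold higher in drones, with 37 counts in queens and 63646 in drones (log2 ratio -2.91, -3.41 to -2.44). miR-1-3p was at -0.30, so the 2 did not move together. In all, 1 of 2 was past 2-fold. With the totals that leave out miR-184-3p and miR-1-3p, miR-133-3p stood at -2.22 and miR-1-3p at 0.39.

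Of 4 neural members, 3 were at least 2-fold higher in drones and 0 in queens, with a median of -1.22, where 36.0% of the 50 were higher in drones and their median was -0.46. Of the 3, miR-210-3p was kept through the drone minimum alone, and the interval of miR-7-5p reaches under 2-fold. miR-210-3p, which acts in photoreceptors and the clock of flies, had 15 counts in queens and 27061 in drones, 206 against 1619 CPM (-2.98, -3.81 to -2.25). miR-2796-3p, an insect miRNA found in honey bee brain, stood at 1770.2 against 4498 CPM (-1.35). miR-7-5p, which acts in sensory organs and photoreceptors of flies, stood at 1976 against 4249 CPM (-1.10, -1.35 to -0.87). miR-9-5p, which limits sensory organ precursors in flies, went the other way, at 18978 against 9512 CPM, just under 2-fold before rounding (1.00, 0.92 to 1.07). Of the 10 neural entries outside the 50, miR-927b-5p, on 3 queen counts, had its interval past 2-fold towards drones (-2.87, -5.15 to -1.33). miR-927a-3p was past 2-fold by its ratio alone (-1.16, -2.07 to -0.38) on 13 queen counts, and miR-929-5p, with 1 queen count, was under the queen floor and allows no statement.

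The other miRNAs at least 2-fold higher in drones ran from -2.32 to -1.06. bantam-3p, a growth and survival miRNA of flies, stood at 5928 against 14942 CPM (-1.33, -1.47 to -1.20). miR-13a-5p, with 17 counts in queens, was at -2.17 (-2.95 to -1.49), and miR-13b-3p, also with 17, at -1.29 (-2.07 to -0.61). Both are in the mir-71/mir-2 cluster, of which 2 of 4 members were past 2-fold in the drone direction. The other 2, miR-2a-3-5p of 23 bases and miR-71-5p, were at -0.42 and 0.46. Of the growth and apoptosis list, which shares 3 of these entries, 3 of 4 members were higher in drones (median -1.31), against 36.0% and -0.46 over the 50. miR-13a-5p and miR-13b-3p were kept through the drone minimum alone, and the interval of miR-13b-3p reaches under 2-fold. In the miR-12 cluster, miR-3477-5p was at -1.40, and miR-12-5p and miR-283-5p were under 2-fold at -0.48 and -0.77. miR-996-3p and miR-279d-3p share the seed GACUAGA. They were at -2.32 (-3.03 to -1.69) on 20 queen counts and -1.36 (-1.99 to -0.80) on 25. Both were kept through the drone minimum alone, so their shared direction is partly set by the rule. The interval of miR-279d-3p reaches under 2-fold. Outside the 50, miR-279c-3p and miR-279b-3p have the same seed. They were at -1.74 on 9 queen counts and -0.01 on 2. miR-750-3p, at -1.37, miR-316-5p at -1.16 and miR-3786-3p at -1.06 complete the 18.

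On the queen side, leaving aside the 5 highest ratios, the entries past 2-fold included 3 of the 5 members of the ovary and germline list. miR-275-3p, needed for egg development in the mosquito Aedes aegypti, had 418 counts in queens and 21658 in drones, 5736 CPM (5199 to 6313) against 1296 CPM (1279 to 1313), or 4.43-fold higher in queens (log2 ratio 2.15). miR-989-3p, which acts in follicle cells of the fly ovary, had 86 and 5227 counts, 1180.1 against 313 CPM (1.92, 1.59 to 2.22). With miR-184-3p, 3 of 5 ovary and germline members were at least 2-fold higher in queens, though all 3 were lower per sequenced read, and bantam-3p was higher in drones. Over the 50, 28.0% were at least 2-fold higher in queens, and miR-989-3p was kept through the queen minimum alone. The remaining member, miR-306-5p, shares its seed with miR-275-3p and stood at 6546 against 13053 CPM, 1.99-fold higher in drones and so just under the limit (log2 interval -1.13 to -0.87). The median of these 5 was 1.65, against -0.46 over the 50.

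miR-315-5p, an activator of Wingless signalling in flies, had 209 counts in queens and 12620 in drones, 2868 against 755 CPM (1.93, 1.72 to 2.12). miR-263a-5p, which protects sensory bristle cells from apoptosis in flies, had 78 and 5258 counts, 1070.4 against 315 CPM (1.77, 1.42 to 2.09). let-7-5p stood at 52777 against 23675 CPM (1.16, 1.11 to 1.20), and it is the only let-7 complex entry of the 50. Outside the 50, miR-100-5p, of the same complex, stood at 302 CPM on 22 queen counts against 107 CPM in drones, and miR-125-5p was at 0.60 on 4 queen counts. miR-31a-5p stood at 12844 against 5881 CPM (1.13, 1.03 to 1.22). The Hox cluster entry miR-993-3p was at 1.20 (0.93 to 1.47) and the other Hox member, miR-10a-5p, at -0.12. miR-252b-5p was at 1.08 (0.62 to 1.51) on 44 queen counts. Of the 5 gut and excretory members, miR-275-3p and miR-31a-5p were past 2-fold in queens and miR-750-3p in drones. Over the 50, 28.0% were past 2-fold in queens and 36.0% in drones. miR-305-5p and miR-8-3p were under 2-fold at 0.89 and -0.55. miR-305-5p is processed from the same cluster as miR-275 in flies and mosquitoes.

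The other entries under 2-fold were miR-87a-3p at -0.92, miR-276-3p at -0.89, miR-3049-5p at -0.43, miR-190-5p at -0.10, miR-252a-5p at 0.34 and miR-3785-3p at 0.40. miR-3785-3p has the seed of miR-10a-5p, ACCCUGU, and the latter was also under 2-fold. None of the miR-92 family, of the egg-abundant list or of the 3 entries with names used outside insects was among the 50. The last 3 are not used further, with 0 to 1 queen counts each. Of the 4 miR-92 entries, miR-92b-3p was at 3.14 (2.43 to 3.77) on 21 queen counts, and the others had 1 to 17 counts and intervals that include 0. Some members have a near copy among the entries, with the same seed and at most 2 differences over the first 18 bases, so reads could be split between them. Outside miR-13b-3p and miR-2a-3-5p, which are such a pair themselves, the copies held at most 1.85% of the member's counts in queens and 4.70% in drones.

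The 5 highest ratios belonged to miR-4057, miR-3720-5p, miR-3759-3p, miR-6497-5p and miR-6001-3p, for which no role is given here. They together made up 2.83% of queen counts and 0.00771% of drone counts. miR-4057 had 1476 counts in queens and 471 in drones, 20254 CPM (19234 to 21315) against 28.2 CPM (25.7 to 30.8), a log2 ratio of 9.49. miR-3759-3p had 235 and 93 counts, at 9.18 (8.83 to 9.54). miR-3720-5p had 55 and 21 counts, at 9.23 (8.48 to 10.03). For these 3 the queen column held more counts than the drone column, although its total was smaller by far. miR-6497-5p had 196 and 299 counts, at 7.23 (6.96 to 7.50), and miR-6001-3p 99 and 405, at 5.81 (5.48 to 6.13). All 5 were kept through the queen minimum alone, and 4 of them are the list of entries known from earlier results to be raised in queen columns of low miRNA yield, so that list is not independent evidence of the direction.

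The size of these ratios depended on the denominator. Per 1000000 sequenced reads, miR-4057 stood at 43.2 counts in queens, a log2 ratio of 1.53 (1.38 to 1.68) over drones. miR-3759-3p then stood at 6.87 and 2.95 (1.22, 0.87 to 1.58), and miR-3720-5p at 1.61 and 0.667 (1.27, 0.52 to 2.07). miR-6497-5p was lower in queens on that scale, at 5.73 against 9.50 (-0.73), and so was miR-6001-3p, at 2.89 against 12.9 (-2.15, -2.48 to -1.83). If the queen column is a mean over libraries, miR-6497-5p turns to 17.2 against 9.50 (0.86) and miR-6001-3p stays lower (-0.57). The other 45 miRNAs were all lower in queens per sequenced read, by 56.3-fold to 3352-fold with a median of 412-fold. On that scale miR-4057, miR-3759-3p, miR-3720-5p and miR-6497-5p lay between -0.73 and 1.53. The change of denominator moves every log2 ratio by the same -7.96. The order and the gap to the 45 are thus those by CPM, by which these entries were picked.

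**Figure D3:**
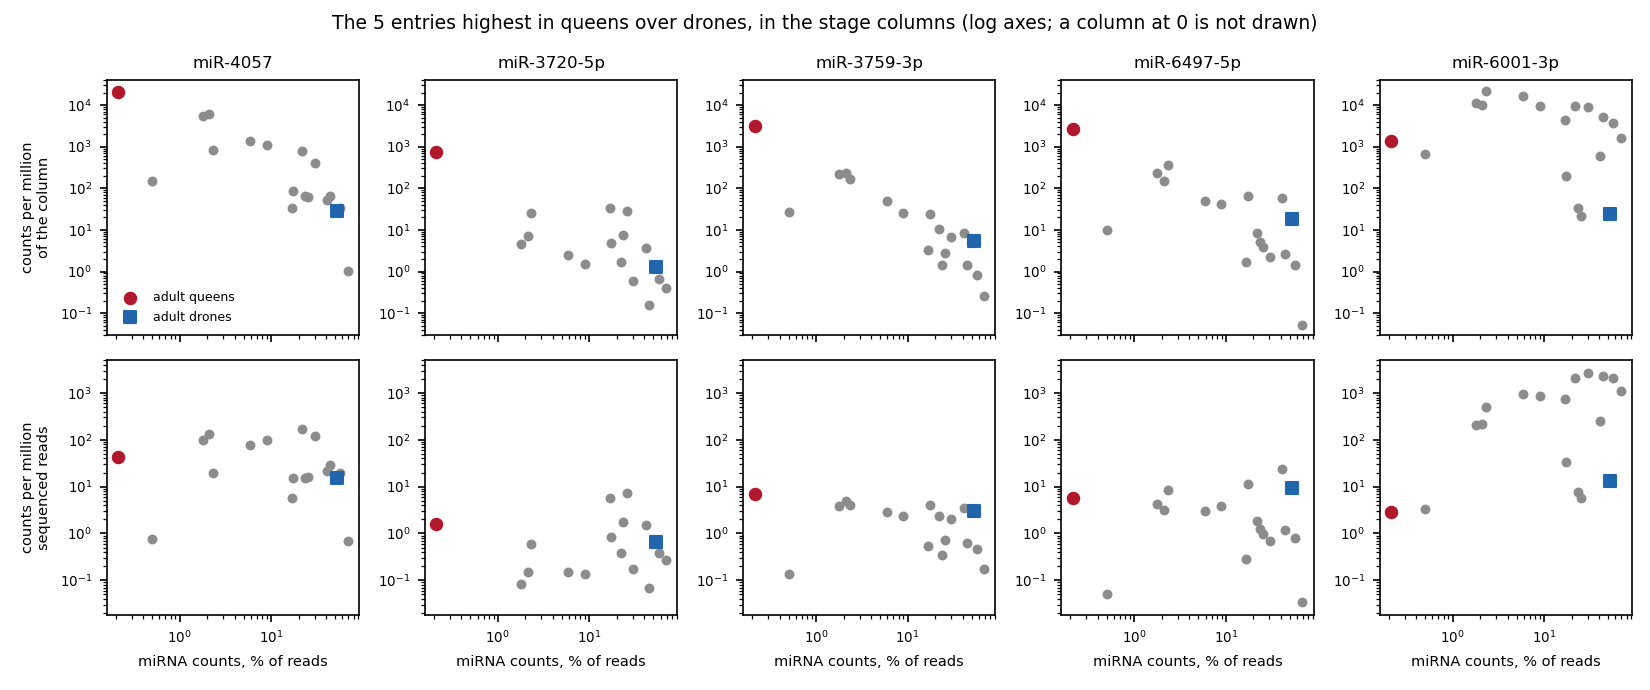
The 5 entries with the highest queen over drone ratio in each stage column, against the share of sequenced reads that were miRNA counts (x axis, percent). The upper panels give CPM of the column and the lower panels counts per 1000000 sequenced reads, all on log axes. Queens lie at the far left, at 0.213%, and for miR-4057 at 20254 CPM but 43.2 per 1000000 reads.

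Over the 18 stage columns, queens were first for miR-4057, miR-3759-3p, miR-3720-5p and miR-6497-5p, and for no other of the 50. All of these were kept through the queen minimum alone, so that rank is partly set by the rule. The 5 columns of lowest miRNA share were adult queens, egg, the queen pupae QW and QR and the queen larvae QL, at 0.213% to 2.32% of reads. miR-3759-3p stood at 27.0 to 3225 CPM in these 5 and at 0.253 to 48.7 CPM in the other 13, and miR-6497-5p at 10.1 to 2689.6 against 0.0506 to 65.9 CPM. For both the ranges overlap through egg alone, since the lowest of the queen columns within the 5, at 171 and 152 CPM, lay above all 13. The queen pupae QDR, with a miRNA share of 44.4%, are among the 13. They stood at 1.40 CPM for miR-3759-3p and 2.71 CPM for miR-6497-5p. miR-4057 ran from 148 to 20254 CPM in the 5 and from 1.01 to 1335 CPM in the 13. miR-3720-5p did not follow that order, with 0 CPM in egg, 4.63 in QW and 34.4 in the larvae L3. miR-6001-3p was 12th of 18 in queens, at 1359 CPM, and 17th in drones, at 24.2 CPM, between the larvae L1 and L2 (33.0 CPM). Its highest level was 21546 CPM, in the queen larvae QL, so the queen level was within the range of the other stages.

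Drones were first of the 18 columns for 12 of the 50 miRNAs. These include miR-34-5p, miR-277-3p, miR-317-3p, miR-14-3p, miR-278-3p, miR-210-3p and miR-133-3p, for each of which OA workers came second. miR-1-3p, also with OA second, was another. The other 4 were miR-276-3p, miR-87a-3p, miR-996-3p and miR-279d-3p. Of the 12, miR-278-3p, miR-210-3p, miR-996-3p and miR-279d-3p were kept through the drone minimum alone, so their rank is partly set by the rule. Drones were last for 8, namely miR-184-3p, miR-275-3p, miR-315-5p, miR-9-5p, miR-31a-5p, miR-993-3p, miR-3785-3p and miR-71-5p. For miR-184-3p the drone level of 122903 CPM lay under the range of the 16 columns outside queens and drones, 217237 to 468323 CPM, and the queen level of 385589 CPM was within it. For miR-34-5p the queen level of 2045 CPM was 3rd of 18, over the median of 514 CPM of those 16 columns. Queens were last for miR-8-3p, miR-13a-5p, miR-13b-3p and miR-190-5p, of which the middle 2 rest on 17 counts each. Those 2 were kept through the drone minimum alone, so their rank is partly set by the rule.

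The workers YA and OA gave the levels of other adult columns. By CPM, queens were above both worker columns for 12 of the 50, between them for 13 and below both for 25. With TMM queens were above both for 12, between for 21 and below both for 17. DESeq2 size factors gave 13, 19 and 18. Drones were above both for 16, between for 11 and below both for 23 by CPM. With TMM drones were above both for 22 and below both for 10, and with DESeq2 size factors for 19 and 14. For the 13 miRNAs whose interval lay past 2-fold on the drone side, drones were above both workers for 9, between for 3 and below both for miR-3477-5p. Queens were between the workers for 5 of these, among them all 3 of the miR-34 cluster, and below both for 8. For miR-278-3p, miR-210-3p, miR-996-3p and miR-13a-5p, kept through the drone minimum alone, the place of drones is partly set by the rule. miR-34-5p stood at 528 CPM in YA, 2045 in queens, 16926 in OA and 27509 in drones. miR-277-3p stood at 7451, 10484, 51237 and 98075 CPM in the same order, and miR-317-3p at 183, 755, 4715 and 6166 CPM. On the log2 scale queens lay nearer to YA than to OA for miR-34-5p and miR-277-3p with CPM, TMM and DESeq2 size factors. For miR-317-3p this held by CPM (2.05 over YA and -2.64 over OA) and turned with TMM (1.98 and -1.81) and DESeq2 size factors (2.14 and -1.90).

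On the queen side, queens were above both worker columns for 9 of the 12, against 12 of the 50. Of the 9, miR-263a-5p and the 5 highest ratios were kept through the queen minimum alone. Their place is thus partly set by the rule. miR-184-3p stood at 122903 CPM in drones, 221830.3 in OA, 262728 in YA and 385589 in queens. miR-275-3p stood at 1296, 1769.7, 3617 and 5736 CPM and miR-315-5p at 755, 1126, 2276 and 2868 CPM in the same order. The step from drones to OA depended on the scaling. With TMM drones lay above OA for each of these, and with DESeq2 size factors for miR-275-3p and miR-315-5p. miR-989-3p differed from these, with 313 CPM in drones, 1180.1 in queens, 1569 in YA and 3305 in OA, so that queens were below both workers. let-7-5p was between them in both sexes, at 18242 CPM in OA, 23675 in drones, 52777 in queens and 98209 in YA. By CPM, the spread between the worker columns was larger than the queen to drone difference for let-7-5p, with log2 ratios of -2.43 (OA over YA) and 1.16. The same held for miR-31a-5p (-1.68 and 1.13). On the drone side it held for miR-34-5p, miR-317-3p (4.69 and -3.03) and miR-278-3p (3.18 and -2.99). For all other entries with the interval past 2-fold, the queen to drone difference was the larger.

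**Figure D4:**
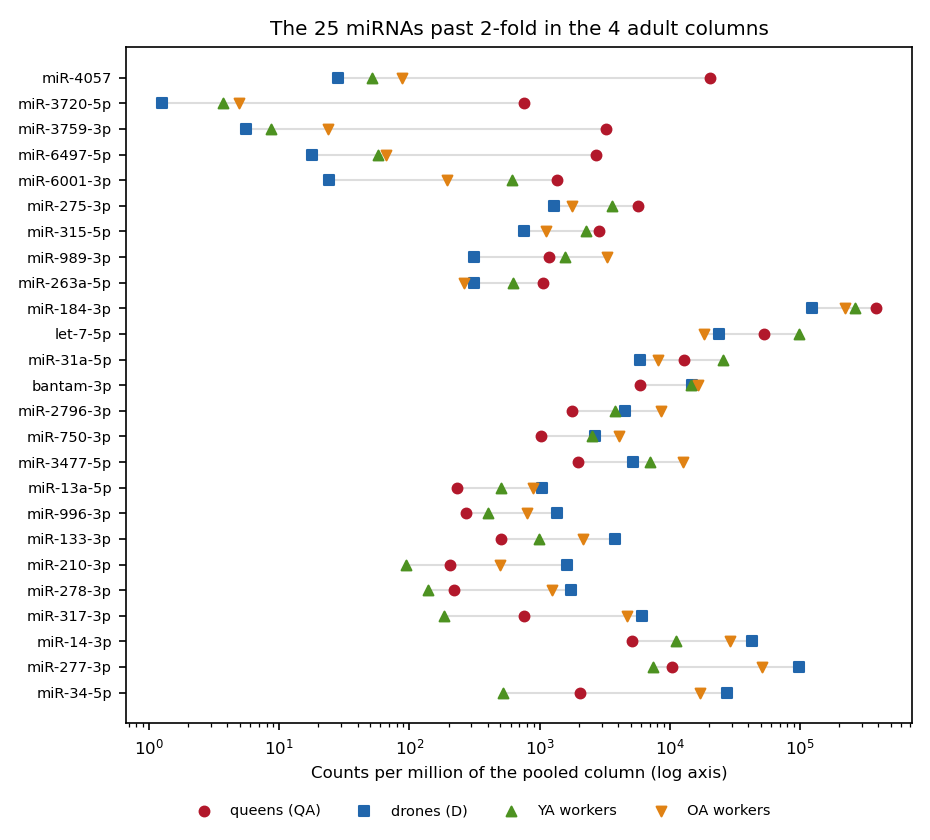
Level of the 25 miRNAs whose counting interval lies past 2-fold, in the 4 adult pooled columns, in CPM on a log axis. Rows are ordered by the queen over drone ratio. For the 13 rows on the drone side OA lies above YA (9 of 13 with TMM and 12 of 13 with DESeq2 size factors). By CPM miR-184-3p, miR-275-3p and miR-315-5p run in the order drones, OA, YA, queens. With TMM drones lie above OA for each of them.

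The worker pair uses other columns than the queen and drone pair. Of the 13 miRNAs on the drone side, 13 were higher in OA than in YA by CPM, 9 with TMM and 12 with DESeq2 size factors. By CPM their log2 ratios ran from 0.19 (bantam-3p) upward with a median of 1.19, where 62.3% of all entries were higher in OA. At least 2-fold higher in OA were 8 of the 13, against 36.3% of all entries, and 5 of the 13 with TMM and 5 with DESeq2 size factors, where 31 and 36 of 145 entries were. Of the 12 on the queen side, 7 were higher in YA and 5 in OA by CPM. With TMM 10 of the 12 were higher in YA, and with DESeq2 size factors 9. Without the 5 highest ratios, 6 of the remaining 7 were higher in YA by CPM and 5 at least 2-fold, against 18.5% of all entries. Among these 7 the exception was miR-989-3p. With TMM and with DESeq2 size factors 6 of the 7 were higher in YA as well. Over all entries, 56 and 69 of 145 were higher in OA with these scalings, against 91 by CPM.

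Queen ovary and drone testis, from the organ sheet, gave a comparison of the gonads alone, with 3796539 and 4933788 miRNA counts. Of the 50 miRNAs, 29 had an entry of the same name and the same sequence there. At least 2-fold higher in ovary were 9 of the 29 and in testis 10, against 27.9% and 44.3% of the 61 entries matched in that way, of which 72.1% were at least 2-fold apart. At least 2-fold apart in both comparisons were 13, of which 6 lay on the same side and 7 on opposite sides, and over all 61 entries the same numbers were 9 and 14. Of the 42 matched by name alone, 9 lay on the same side and 12 on opposite sides.

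On the same side were miR-989-3p and miR-315-5p towards females and miR-133-3p, miR-317-3p, miR-279d-3p and miR-3477-5p towards males. miR-989-3p stood at 6564 CPM in queen ovary and 677 in drone testis (log2 ratio 3.28, 3.23 to 3.33). miR-315-5p stood at 1055 and 118 CPM (3.17), miR-133-3p at 428 and 17731 CPM (-5.37) and miR-317-3p at 79.8 and 796 CPM (-3.32). On opposite sides, bantam-3p was higher in ovary, at 48174 against 11514 CPM (2.06), though higher in adult drones. miR-996-3p, miR-316-5p and miR-2796-3p did the same, at 3.77, 3.92 and 1.17, and so did miR-750-3p, at 1319.9 CPM in ovary and 467 in testis. miR-263a-5p and miR-31a-5p were higher in testis, at -3.84 and -1.46, though higher in adult queens. miR-277-3p stood at 370.3 CPM in ovary and 649 CPM in testis (-0.81). The stage sheet, in which it stood at 98075 CPM in drones, was normalized on its own, so levels were not compared across the sheets. miR-184-3p was 0.97 between the gonads, on the same side as in adults but under 2-fold. The largest gonad difference among the 29, that of miR-190-5p at 273 against 102209.7 CPM (-8.55), had no counterpart in the adult columns, where it stood at 699.8 against 749 CPM (-0.10, -0.52 to 0.30). The sequences of miR-34-5p, miR-14-3p, miR-275-3p, miR-9-5p and the 5 highest queen ratios were not matched and are not compared there.

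**Figure D5:**
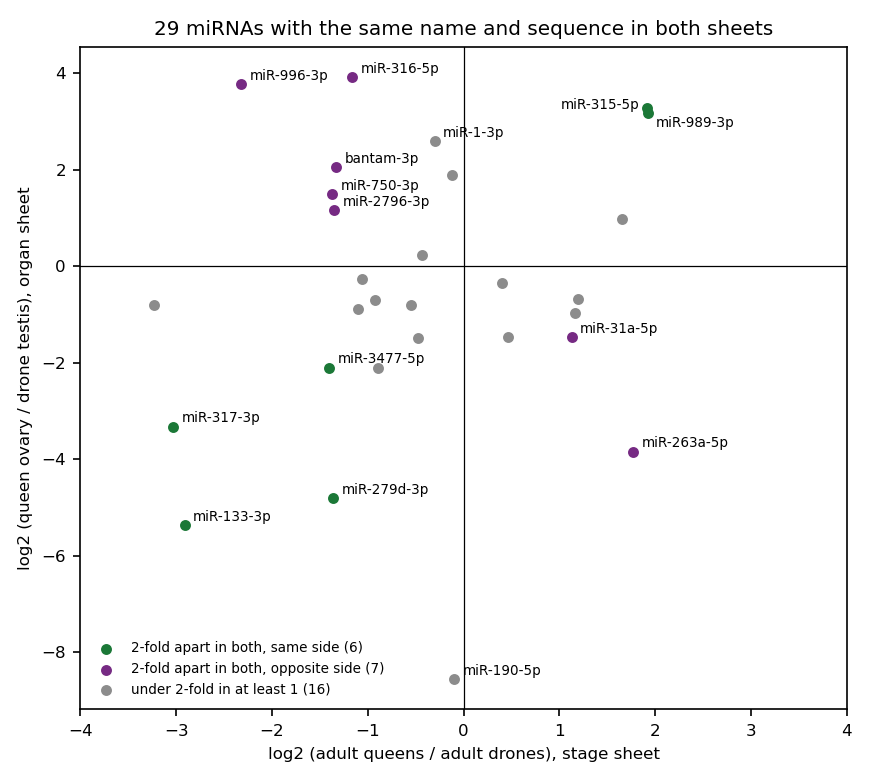
log2 ratio of queen ovary over drone testis (y axis) against that of adult queens over adult drones (x axis) for the 29 miRNAs with the same name and sequence in both sheets. The 6 green points are at least 2-fold apart on the same side in both, the 7 purple points on opposite sides, and miR-190-5p lies at -8.55 on the y axis and -0.10 on the x axis.

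Some entries lay close to the minimums on either side. Just inside were miR-252a-5p and miR-3049-5p with 36 queen counts, and miR-2a-3-5p of 23 bases at 515 CPM in drones. Just outside were miR-3715-5p with 28 queen counts and 26.0 CPM in drones (3.89), miR-2765-5p with 26 counts and 37.8 CPM (3.24) and miR-79-5p with 26 counts and 497 CPM (-0.48). Of the 96 entries outside, 15 were at least 2-fold higher in queens and 12 in drones, on at most 28 queen counts. Over all 146 entries the shares were 19.9% and 20.5%. Both directions include entries under the queen floor, such as miR-971-3p with 1 queen count and miR-29b-3p with 2. Such entries allow no statement. Of the 42 entries with 0 counts in queens, miR-981-3p had the highest drone level, 51.4 CPM, a ratio of at least 1.25-fold against the floor, so none could reach 2-fold at this depth.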

How the data were processed

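Small RNA was sequenced in 76 libraries, 54 of them in 18 stage groups, and the adult queen and adult drone groups held 3 libraries each. The authors deposited miRNA read counts with 1 pooled column per group, per the file headers, and read totals and the GC percent of each library. The labels do not say whether replicates are separate bees or colonies. Tools named in the submitters' processing notes are bcl2fastq and kallisto. How the columns were pooled, and on which build, is not given in the sources used here. The names of libraries in the deposited read statistics show the group but not which library it is, so reads and GC were used as group sums and ranges. All 50 names were in the authors' list of 200 conserved miRNAs.

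CPM was computed from column totals. Intervals (95%) are exact, Clopper-Pearson for ratios and shares and Poisson for levels, made with SciPy 1.17.1 in Python 3.11.15 and checked on simulated counts. They cover counting error only and treat each read as independent, which PCR copies are not. A side at 0 was set to a floor of 3 counts. TMM factors came from edgeR 4.0.16 and size factors from DESeq2 1.42.0, over the 18 stage columns in R 4.3.3. The comparison, the 50 miRNAs and the lists were chosen with earlier results of these data known. By rule, named were up to 10 members in each direction by size of ratio among those with the interval past 2-fold, the 5 most abundant in each column, list members and those next to the minimums. All other members are given by their ratio. The mature sequences are as deposited. Alternatives were other scalings, limits and minimums.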

Additional observations from a re-analysis of the deposited data

How the results depend on the processing

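The number of miRNAs at least 2-fold apart, 32 of 50, was within 1.5 times of that with TMM (33), DESeq2 size factors (32), totals without miR-184-3p and miR-1-3p (29), the interval past 2-fold (25), minimums of 10 or 100 queen counts (38 and 27) and of 100 or 1000 drone CPM (39 and 30), and 32 with 1 CPM added, with the conserved names and with identical sequences merged, of which there were 0. Outside that range, totals without miR-184-3p and miR-1-3p left 9 higher in drones, the minimum of 100 queen counts left 9 higher in queens, and a 4-fold limit left 15, 6 in queens and 9 in drones. Without a filter 59 of 146 were apart, 29 and 30. Chosen after seeing the data, members by both minimums gave 18, 6 in queens, and counts per 1000000 sequenced reads gave 49, 3 in queens and 46 in drones. The cause was not tested. On that last scale the log2 ratio turned to -6.80 for let-7-5p, -6.31 for miR-184-3p, -6.19 for miR-263a-5p, -5.81 for miR-275-3p, -6.04 for miR-315-5p, -6.83 for miR-31a-5p, -2.15 for miR-6001-3p, -0.73 for miR-6497-5p, -6.04 for miR-989-3p and -6.76 for miR-993-3p. Drones were below both worker columns for 10 miRNAs with TMM and 14 with DESeq2 size factors (main value 23), and 12 miRNAs matched to the gonads by name alone lay on opposite sides (main value 7). No paired analysis was possible because the count sheet pools the libraries of a group, and leaving out a library was not run for the same reason. The queen depth limits all values: 30 counts carry a wide interval, and levels under 41.2 CPM were under the floor of 3 counts in queens.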

Other observations

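Among the 96 entries under both minimums, 6 had a counting interval wholly past 2-fold, 5 towards queens and 1 towards drones. miR-3715-5p stood at 384 CPM in queens and 26.0 CPM in drones (log2 ratio 3.89, 3.28 to 4.44), miR-2765-5p at 357 and 37.8 CPM (3.24, 2.61 to 3.81) and miR-92b-3p at 288 and 32.7 CPM (3.14). miR-3770-5p, at 4.28 (2.61 to 5.58), rested on 5 queen counts and miR-2944-3p, at 3.70 (1.38 to 5.32), on 3. On the drone side was miR-927b-5p, at 41.2 and 302 CPM (-2.87, -5.15 to -1.33), also on 3 queen counts. These entries were singled out after their values were seen.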
